A study of Mus musculus with 18 samples.

Results

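BMP4, a ligand of the bone morphogenetic protein (BMP) family, was compared with growth factor-free medium in co-cultures of mouse embryonic stem (ES) cells and PA6 stromal cells at day 3. The comparison rests on 6 of the 18 arrays of the series, 3 co-cultures with BMP4 and 3 without growth factors (-GFs). Its genes were those with a probe of detection p under 0.05 on at least 3 of these 6 arrays, which kept 19993 probes, for 14446 of the 30854 gene names on the array. The genes were described under the names of the array table, with the current symbol in parentheses where it differs.

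The study examined how growth factors direct ES cells to form endothelium on PA6 cells, a mouse stromal line that also holds adipocyte precursors. The ES cells were a knock-in line that expresses EGFP from the tau (Mapt) locus. They were grown on PA6 monolayers in 6-well plates in serum-free medium, in both groups alike. The control group (-GFs) received no growth factor and the other received recombinant BMP4 at 10 ng/ml, and each biological replicate had 1 well of each condition. Microarray RNA came from the whole well, both cell types together, so that fewer cells of a type and less RNA per cell cannot be told apart. PA6 mono-cultures given the same medium without or with BMP4 at 10 ng/ml (3 arrays each) show the response without ES cells. This response was set against that of the co-cultures. The mono-culture arrays, and those of cultures given FGF2, were also normalized with the compared arrays and entered the same limma fit. They therefore helped to set the p-values of the comparison.

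BMP ligands bind serine/threonine kinase receptors that phosphorylate SMAD proteins, which enter the nucleus and switch on target genes such as the Id genes, inhibitors of basic helix-loop-helix factors. In the early embryo, BMP signalling favours epidermal over neural fate of the ectoderm and takes part in the formation of mesoderm and extra-embryonic tissue. In mouse ES cells it also supports self-renewal together with LIF, and in stromal precursors it favours adipocyte or bone formation.

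Between 19365 and 20191 probes were detected on each of the 6 arrays, and no 2 arrays of the series held identical values. The median standard deviation (SD) of a gene within a group was 0.208 (-GFs) and 0.212 (BMP4) on the log2 scale, n = 3. Markers of both cell types were present in both groups. All 15 tested ES cell markers were detected on all 6 arrays, at a summed linear level of 151000 to 172000 without and 156000 to 168000 with BMP4. The 23 tested stromal markers summed to 208000 to 265000 without and 200000 to 242000 with BMP4, ranges that overlap as well.

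Of the 14446 genes, 137 were called (0.948%), 55 higher (0.381%) and 82 lower (0.568%) with BMP4. A call needed an adjusted p under 0.1 in the limma fit and a log2 fold change over 1 in size. Of the 14446 genes, 21 passed the detection filter through the BMP4 arrays alone and 79 through the -GFs arrays alone. Among the called genes, 2 higher and 13 lower passed in this way. Their p-values belong to genes that entered through the group where they were high. The log2 fold changes of all genes ran from -4.04 to 3.45 with a median of -0.0043, and 1707 genes had an unadjusted p under 0.05. Falls were the larger changes: 23 called genes lay below -2 and 6 above 2. The difference between the 2 wells of a replicate set had the same sign in all 3 sets for all 137 called genes, and the 3 arrays of 1 group lay beyond the 3 of the other for 130 of them (49 higher, 81 lower), against 6.13% and 7.16% of all genes. Both traits come largely with the call, which was made on the same arrays, and add no separate evidence. The sets did not respond equally. The median size of the difference over the called genes was 1.21 in set 1, 1.72 in set 2 and 1.27 in set 3, and set 1 had the smallest difference for 71 of the 137. The replicate number was not a term in this fit; with it as a block, 204 genes were called (1.41%), 85 higher (0.588%) and 119 lower (0.824%), all 137 among them. The count of 137 fell to 60 without -GFs replicate 2, of which 54 were among the 137, and fitted on the 9 co-culture arrays alone without the block it was 12 (0.0831%). Fits that leave out an array have no block and keep its same-numbered partner, so differences between the sets enter their fold changes. Normalized by the cubic spline instead, 19 genes were called higher and 45 lower. The 3 cultures per group and the other groups of the fit set these p-values, which measure the spread between the cultures of the 6 groups only. That spread was pooled, and the median SD was 0.143, 0.17 and 0.158 in the mono-cultures (-GFs, FGF2 and BMP4). A gene that varied mainly in the co-cultures can therefore have an SE that is small for them. In the limma fit on the 9 co-culture arrays alone without the block, the adjusted p was 0.192 for ADIPOQ and 0.335 for WNT6. With the block on the same 9 arrays, the limma adjusted p was 0.0201 for ADIPOQ, which was called, and 0.149 for WNT6, which was not.

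**Figure D1:**
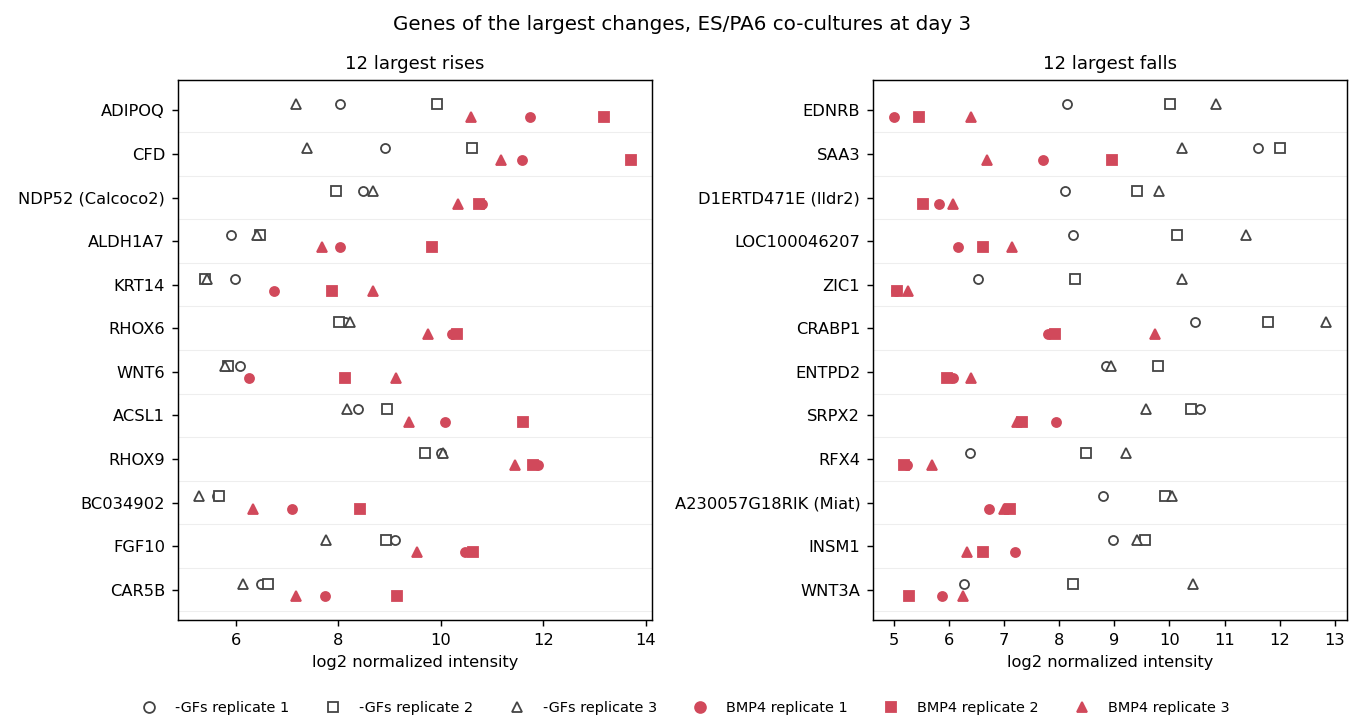
The 12 genes with the largest rises (left) and the 12 with the largest falls (right) among called genes whose groups do not overlap. The x axis is the log2 normalized intensity; each symbol is 1 array, open for -GFs and filled for BMP4, and its shape is the replicate number. The mean difference is -4.04 for EDNRB and 3.45 for ADIPOQ, the top gene of each panel, and WNT6 and WNT3A show sets with little difference beside sets with a large one.

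Genes of surface epithelium were higher with BMP4. Of 24 tested genes of the surface ectoderm and epithelium list, 8 were called higher and 0 lower, against 0.381% and 0.568% of all genes, and the median of the 24 was 0.55. Of 10 tested epithelial keratins, 3 were called higher and 0 lower, with a median of 0.70. With quantile and spline normalization of uncorrected signals, 4 and 3 of the 24 were called higher. With detection required on all 6 arrays, 5 of 17 genes of the epithelial list and 1 of 7 keratins were called higher. KRT14, the keratin of basal epidermal cells, was 5.98, 5.39 and 5.43 on the -GFs arrays and 6.74, 7.87 and 8.67 on the BMP4 arrays (log2 intensity, replicates 1 to 3 in each group). KRT14 was detected on 1 -GFs array and on all BMP4 arrays. All BMP4 arrays lay above all -GFs arrays, and set 1 differed least. The rise was 2.16 ± 0.368 (SE) with an adjusted p of 0.0106. KRT8, a keratin of simple epithelia, was 9.53, 9.55 and 10.27 without and 10.52, 11.46 and 11.77 with BMP4, again without overlap. Its rise was 1.47 ± 0.348 (adjusted p 0.0563). KRT19, another simple-epithelial keratin, rose by 1.43 (adjusted p 0.0381) and was detected on 1 -GFs array and on all BMP4 arrays. KRT18, the partner of KRT8, stood at 1.10 with an adjusted p of 0.121 and was called with the replicate block (0.00145).

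The called genes of the epithelial list were WNT6, TCFAP2A (Tfap2a), DSP, 9530027K23RIK (Esrp2), TRP63, TCFAP2C (Tfap2c), GRHL3 and CLDN4. DSP encodes desmoplakin, which ties keratin filaments to desmosomes. It was 5.68, 5.52 and 5.70 without BMP4 and 7.35, 6.28 and 7.35 with it, not detected on any -GFs array and on all 3 BMP4 arrays. DSP was at least 2.16-fold higher with BMP4 (adjusted p 0.0051). GRHL3, a transcription factor of the epidermal barrier, was 6.52, 6.53 and 6.65 in -GFs and 7.64, 7.22 and 8.04 with BMP4. The groups were apart, and GRHL3 rose by 1.07 ± 0.166 (adjusted p 0.0051), and its other probe gave 1.24. TCFAP2C, which encodes the AP2 gamma factor of epidermis, trophoblast and germ cells, was 11.39, 10.30 and 11.42 without and 12.15, 12.18 and 12.57 with BMP4. -GFs replicate 2 was the low array, and the rise was 1.26 ± 0.234 (adjusted p 0.0167). TCFAP2A, the AP2 alpha factor of surface ectoderm and neural crest, was 5.73, 6.26 and 7.42 in -GFs and 6.97, 8.66 and 8.88 with BMP4. Its groups overlapped, since -GFs replicate 3 was above BMP4 replicate 1, and it was called at 1.70 ± 0.431 (adjusted p 0.0724). ESRP2, a splicing factor of epithelial cells, rose by 1.31, TRP63, the p63 regulator of stratified epithelium, by 1.28 and CLDN4, a tight junction protein, by 1.07. TRP63 was also detected on all 6 PA6 mono-culture arrays. Its means there were 8.12 without and 8.45 with BMP4, above the -GFs co-culture mean of 7.52. SFN, the epithelial 14-3-3 protein stratifin, stood at 1.33 (adjusted p 0.117), and the replicate block made it a call (0.0405). With the block 9 genes of the list were called higher and 1 lower, against 0.588% and 0.824% of all genes, and its lowest member stood at -1.10.

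WNT6, a Wnt ligand of surface ectoderm, was 6.08, 5.86 and 5.78 without BMP4 and 6.25, 8.12 and 9.13 with it. BMP4 replicate 1 was only 0.17 above its own control, whereas the other sets differed by 2.27 and 3.35. The rise was 1.93 ± 0.453 (adjusted p 0.0562). WNT6 was detected on 1 -GFs array and on all BMP4 arrays. Of the 7 tested WNT ligands, WNT6 was called higher and WNT3A, a Wnt of the dorsal neural tube and tail bud, lower. The shares of all genes were 0.381% and 0.568%. WNT3A was 6.28, 8.26 and 10.43 in -GFs, the most variable control of the named genes, and 5.87, 5.28 and 6.26 with BMP4. Its 3 sets differed by -0.41, -2.97 and -4.17, and it fell by 2.52 ± 0.688 (adjusted p 0.0988).

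PLAC1, a placental gene, was 5.8, 6.12 and 5.51 without and 7.10, 7.94 and 7.18 with BMP4 and rose by 1.6 ± 0.263 (adjusted p 0.00883). PLAC1 was detected on 1 -GFs array and on all BMP4 arrays. It is 1 of 3 genes called higher among 13 of the trophoblast list, against 0.381% of all genes. The others were KRT8 and TCFAP2C, which the epithelial lists hold too. CDX2, EOMES and ELF5, which define trophoblast stem cells, were below the detection filter. Outside the lists, and chosen after their values were seen, the epithelial genes LAD1 (1.31), AQP3 (1.55) and ELF3 (1.07) rose, as did TEAD4 (1.05), a transcription factor of the trophectoderm. LAD1 was detected on 1 -GFs array and on all BMP4 arrays. The other probes of ELF3 gave 1.22 and 0.28 and that of TEAD4 0.57. KRT14, DSP, ESRP2 and PLAC1 were called whichever array was left out. With quantile and with spline normalization the calls of DSP, ESRP2, PLAC1, GRHL3, TRP63, KRT19, LAD1, ELF3 and TEAD4 were lost, and with the spline alone those of CLDN4 and AQP3. -GFs replicate 2 decided the most calls among the others: without it, TCFAP2C (0.90), CLDN4 (0.83), ELF3 (0.91) and TEAD4 (0.73) fell short of the fold threshold, and KRT8 (1.35), KRT19 (1.22), TCFAP2A (1.6), TRP63 (1.30), WNT6 (1.90), LAD1 (1.25) and AQP3 (1.20) of the adjusted p. Calls were also lost for KRT8 (1.34), TCFAP2A (1.33), TRP63 (1.32) and LAD1 (1.14) without -GFs replicate 1, and for TRP63 (1.23), WNT6 (1.87) and AQP3 (1.45) without -GFs replicate 3. On the treated side, BMP4 replicate 1 decided LAD1 (1.41) and AQP3 (1.41), BMP4 replicate 2 decided KRT8 (1.36), KRT19 (1.21), TCFAP2A (1.46), TRP63 (1.05), WNT6 (1.79) and AQP3 (1.63), and BMP4 replicate 3 decided KRT8 (1.21), TCFAP2A (1.35), TRP63 (1.06), WNT6 (1.28), GRHL3 (0.86), CLDN4 (1.0), ELF3 (0.99) and LAD1 (1.05), each value being the log2 fold change without that array. The epithelial list's count of 8 fell to 3 without -GFs replicate 2 and to 3 without BMP4 replicate 3, and the keratins' count of 3 to 1 when replicate 2 of either group was left out.

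**Figure D2:**
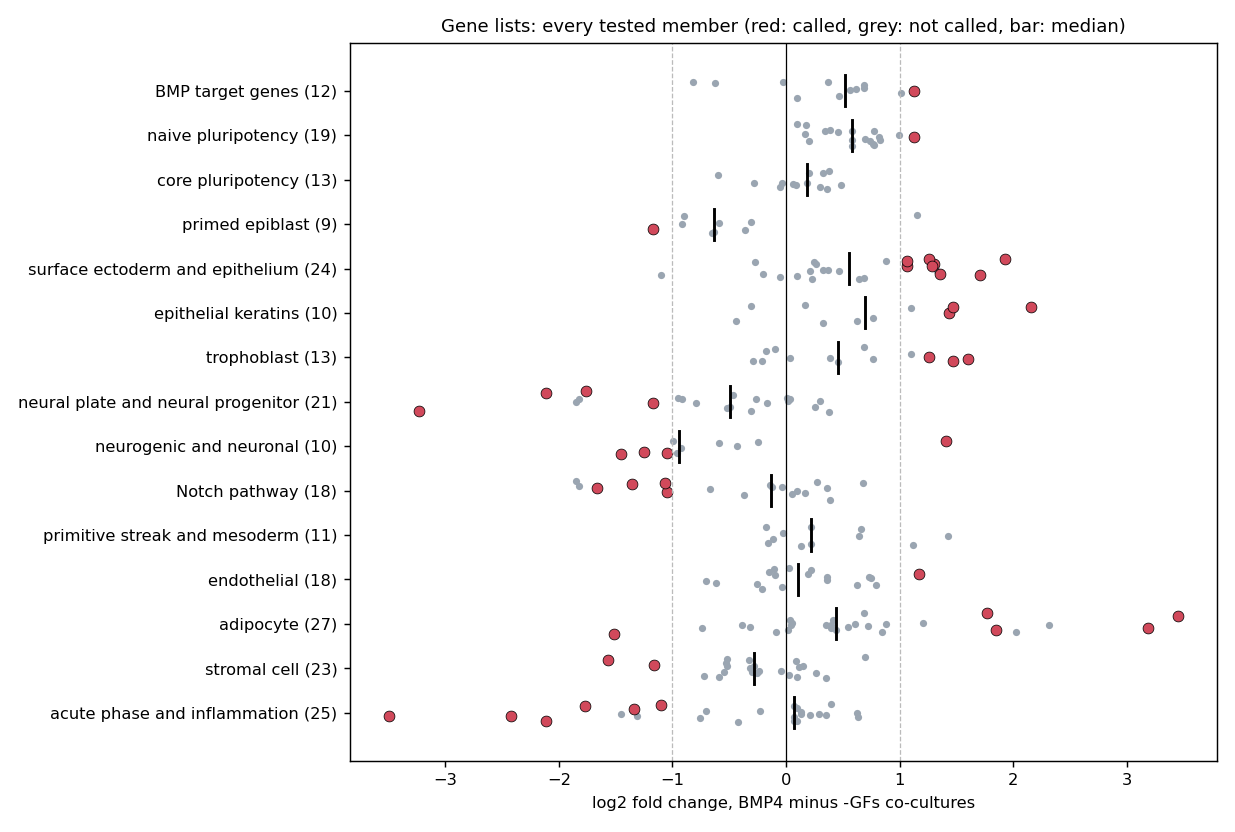
Log2 fold change (BMP4 minus -GFs co-cultures, x axis) of every tested member of 15 gene lists, with the number tested in parentheses. Red points are called genes, grey points are not, black bars are list medians and dashed lines mark the fold threshold of 1. The epithelial lists lie mostly to the right of 0, the neural lists to the left, and all 19 members of the naive pluripotency list above 0.

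Neural genes made up the other side. Of 21 tested genes of the neural plate and neural progenitor list, 4 were called lower and 0 higher, against 0.568% and 0.381% of all genes. The median was -0.50, and 15 of the 21 were below 0. Of 10 tested neurogenic and neuronal genes, 3 were called lower and 1 higher, with a median of -0.94. All 4 of these calls were lost with quantile and with spline normalization. With detection required on all 6 arrays, 2 of 16 neural plate genes were called lower, and of 9 neuronal genes 1 lower and 1 higher. ZIC1, a zinc finger factor of the dorsal neural tube, was 6.52, 8.29 and 10.23 without BMP4 and 5.04, 5.06 and 5.26 with it. All 3 -GFs arrays and no BMP4 array detected it. ZIC1 was at least 5.24-fold lower (adjusted p 0.0556). SOX21, a SoxB2 factor of neural progenitors, was 10.20, 11.03 and 11.13 in -GFs and 8.85, 8.49 and 8.67 with BMP4, in groups far apart. It fell by 2.12 ± 0.327 (adjusted p 0.0051). GBX2, a factor of the anterior hindbrain that is also active in ES cells, fell by 1.76 (adjusted p 0.0381), from 12.64, 12.47 and 11.32 to 10.79, 10.33 and 10.04. SOX3, a SoxB1 factor of neural progenitors, fell by 1.17 (adjusted p 0.0939). Nestin (NES), the intermediate filament of neural stem cells, stood at -1.82 with an adjusted p of 0.172 and was called with the replicate block (0.00146).

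EDNRB, the endothelin B receptor of neural crest and neural progenitors, had the largest fall of all genes. It was 8.15, 10.01 and 10.84 in -GFs and 5.01, 5.46 and 6.41 with BMP4, where 1 of 3 arrays detected it. Every BMP4 array lay below every -GFs array, and the log2 fold change was -4.04 ± 0.703 (adjusted p 0.0118). A second probe gave -1.99. CRABP1 and CRABP2 bind retinoic acid in the cytoplasm and mark retinoid-responsive neural and mesenchymal cells. CRABP1 was 10.46, 11.79 and 12.84 without and 7.80, 7.92 and 9.74 with BMP4 and fell by 3.21 ± 0.575 (adjusted p 0.0137). CRABP2 fell by 2.08 (adjusted p 0.0695), from 9.59, 10.60 and 11.41 to 7.87, 8.73 and 8.76. Both were lowest in set 1 in either group. RFX4, a winged-helix factor of the dorsal neural tube, went from 6.38, 8.48 and 9.21 to 5.23, 5.18 and 5.70 and was at least 4.19-fold lower (adjusted p 0.0581).

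INSM1, a zinc finger factor of newborn neurons and endocrine cells, was 8.98, 9.56 and 9.42 without BMP4 and 7.21, 6.63 and 6.33 with it. Every BMP4 array lay below every -GFs array, and INSM1 fell by 2.60 ± 0.399 (adjusted p 0.0051). D1ERTD471E (Ildr2), LOC100046207 and A230057G18RIK (Miat, a long non-coding RNA of neural cells) fell, with log2 fold changes of -3.30, -3.28 and -2.65 (adjusted p 0.01, 0.0299 and 0.0238). Other secreted and regional genes fell too: SFRP2, a secreted Wnt modulator, stood at -1.99, FGFBP3, an FGF carrier, at -1.88, and HOXB7, a posterior Hox gene, at -2.01. AW120700 (Cdh4), the R-cadherin, fell by 1.32, and MFSD2 (Mfsd2a), a lipid transporter, had a log2 fold change of -2.37 (adjusted p 0.0033).

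The neuronal genes ELAVL3 (array name 2600009P04RIK), an RNA-binding protein, and ONECUT2 (C730009D12), a cut homeobox factor, had log2 fold changes of -1.45 and -1.25, and the third gene of this list called lower was DLL1, which the Notch list holds too. MAPT, the tau gene and the 1 member of the neuronal list called higher, was 6.61, 5.98 and 6.85 without and 8.25, 7.59 and 7.83 with BMP4 and rose by 1.41 ± 0.202 (adjusted p 0.00422). The ES line carries EGFP in this locus, and how the probe reads the knock-in allele was not tested. Chosen after their values were seen, further neuronal genes were called lower: NEFM, a neurofilament protein (at least 2.62-fold), NEUROD4, a neurogenic factor (at least 1.63-fold), NCAN, a neural proteoglycan (at least 1.64-fold), SLC17A6, a glutamate transporter (at least 1.76-fold), SYP, the synaptic vesicle protein synaptophysin (-1.27), EPHA7, an ephrin receptor (-1.86), RELN, reelin (-1.02), and NRCAM, a cell adhesion protein (-1.17). SYP was 7.18, 7.41 and 7.10 in -GFs and 6.09, 5.88 and 5.89 with BMP4 (adjusted p 0.0033).

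Of 18 tested genes of the Notch pathway, which controls neurogenesis by lateral inhibition, 4 were called lower and 0 higher. The shares of all genes were 0.568% and 0.381%, and the median of the list was -0.13. DTX4, a deltex E3 ligase, was 8.09, 8.77 and 8.69 without and 6.95, 6.72 and 6.87 with BMP4 and fell by 1.67 ± 0.246 (adjusted p 0.0051). In the PA6 mono-cultures, which hold no ES cells, DTX4 also fell by 1.67 and was called lower. MFNG, a glycosyltransferase that modifies Notch, fell by 1.36 (adjusted p 0.0051), HES6, a neurogenic bHLH factor, by 1.07 (0.0122), and DLL1, the Delta ligand, by 1.05 (0.0989). HES6 was at 11.38, 11.59 and 11.50 without and 10.35, 10.47 and 10.45 with BMP4. NRARP, a feedback target, stood at -1.82 (adjusted p 0.117; called with the replicate block, 0.00146), and HES5, the effector, at -1.85 (adjusted p 0.31), with set differences of 0.41, -2.70 and -3.25.

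Among these neural and Notch genes, EDNRB, CRABP1, SOX21, INSM1, ILDR2, MFSD2, ELAVL3, DTX4, MFNG, HES6, SYP and MAPT were called whichever array was left out. With quantile and with spline normalization, ELAVL3, ONECUT2, MAPT, DLL1, MFNG, SOX3, WNT3A, CDH4, NEUROD4, NCAN, SLC17A6, SYP, RELN and NRCAM were not called, nor was HES6 with the spline. Without -GFs replicate 2 the calls of ZIC1 (-3.26), CRABP2 (-2.05), GBX2 (-1.6), SOX3 (-0.80), RFX4 (-2.42), WNT3A (-2.55), SFRP2 (-1.98), FGFBP3 (-2.0), MIAT (-2.48), LOC100046207 (-3.17), CDH4 (-1.17), ONECUT2 (-1.05), DLL1 (-0.83), NEFM (-1.91), NEUROD4 (-1.53), EPHA7 (-1.77), NCAN (-1.07), NRCAM (-0.99), RELN (-0.87) and SLC17A6 (-0.96) were lost, and without -GFs replicate 1 that of DLL1 (-1.07). Leaving out -GFs replicate 3 ended the calls of ZIC1 (-2.29), CRABP2 (-1.64), SOX3 (-1.18), RFX4 (-2.06), WNT3A (-1.46), SFRP2 (-1.72), FGFBP3 (-1.43), CDH4 (-1.12), NEFM (-1.37), NEUROD4 (-1.46) and EPHA7 (-1.47). BMP4 replicate 1 decided ZIC1 (-3.19), CRABP2 (-1.79), SOX3 (-1.0), RFX4 (-2.58), WNT3A (-2.55), FGFBP3 (-1.82), LOC100046207 (-3.04), CDH4 (-1.37), DLL1 (-1.04), NEFM (-1.66), NEUROD4 (-1.72), EPHA7 (-1.83), NCAN (-1.24) and RELN (-0.89). BMP4 replicate 2 decided ZIC1 (-3.20), CRABP2 (-2.22), GBX2 (-1.73), SOX3 (-1.21), RFX4 (-2.56), WNT3A (-2.26), SFRP2 (-1.52), FGFBP3 (-1.90), HOXB7 (-1.6), CDH4 (-1.25), ONECUT2 (-1.15), DLL1 (-1.11), NEFM (-2.02), NEUROD4 (-1.62) and EPHA7 (-1.84), and BMP4 replicate 3 SOX3 (-1.30), WNT3A (-2.74), CDH4 (-1.34), DLL1 (-0.99), NEFM (-1.90), NEUROD4 (-1.55), EPHA7 (-1.91) and SLC17A6 (-0.99). The neural plate list's count of 4 fell to 1 when replicate 2 of either group was left out and was 6 without -GFs replicate 1, and the neuronal list's count of 3 lower fell to 1 without -GFs replicate 2. No named gene that was called changed sign in any of these fits.

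**Figure D3:**
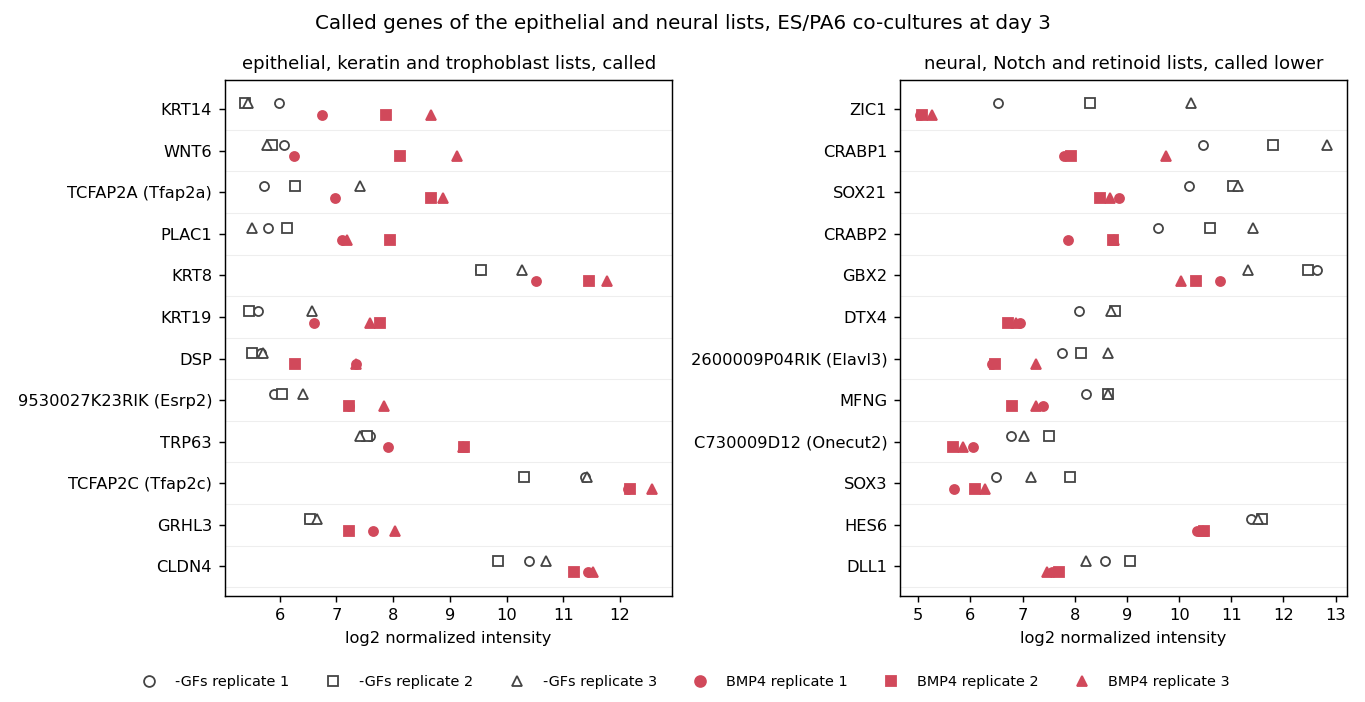
Called genes of the epithelial, keratin and trophoblast lists (left) and called-lower genes of the neural, neuronal, Notch and retinoid lists (right), as log2 normalized intensity (x axis) on each array. Open symbols are -GFs, filled symbols BMP4 and the shape is the replicate number. TCFAP2A is the only gene in these panels whose groups overlap.

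The AP2 genes that rose encode factors that bind the palindrome GCCNNNGGC. RefSeq promoters (assembly GRCm38.p6, the 250 bases before the annotated start) were matched by symbol to 34 of the genes called higher and 53 of those called lower. The palindrome, read on both strands, lay in 11.9% of the 42 promoters of the former and 15.6% of the 64 of the latter, against 20.7% of 11463 promoters of all 8967 tested genes matched. Both shares were below that of all promoters, on 5 and 10 promoters with a match. A match is a description and no evidence of binding. TEAD4 belongs to the factors that bind GGAATG, which was in 16.7% and 14.1% of the same promoters and in 10.7% of all, and GGCGCC, a sequence found in SMAD-bound elements, was in 14.3% and 18.8%, against 16.3%. The promoters of WNT6 (chr1:74771642-74771891, plus strand), DSP (chr13:38151044-38151293, plus), ZIC1 (chr9:91365769-91366018, minus) and EDNRB (chr14:103843702-103843951, minus) are shown to place the palindrome, in capitals, in 2 genes that rose and 2 that fell.
Wnt6: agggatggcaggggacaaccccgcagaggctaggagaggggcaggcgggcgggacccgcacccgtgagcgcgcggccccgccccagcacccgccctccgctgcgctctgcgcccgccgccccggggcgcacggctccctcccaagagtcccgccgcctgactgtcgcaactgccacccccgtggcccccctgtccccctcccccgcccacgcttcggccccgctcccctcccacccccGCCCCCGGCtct
Dsp: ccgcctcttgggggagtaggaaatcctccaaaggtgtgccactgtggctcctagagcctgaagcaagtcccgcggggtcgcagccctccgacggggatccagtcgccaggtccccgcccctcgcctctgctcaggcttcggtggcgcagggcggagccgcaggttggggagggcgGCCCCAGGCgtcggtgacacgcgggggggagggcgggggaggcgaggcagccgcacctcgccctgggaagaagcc
Zic1: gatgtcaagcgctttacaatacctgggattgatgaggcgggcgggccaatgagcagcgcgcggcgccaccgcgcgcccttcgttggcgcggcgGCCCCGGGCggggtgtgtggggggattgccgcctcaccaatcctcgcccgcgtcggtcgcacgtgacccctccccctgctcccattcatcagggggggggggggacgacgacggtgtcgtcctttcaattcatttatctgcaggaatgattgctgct
Ednrb: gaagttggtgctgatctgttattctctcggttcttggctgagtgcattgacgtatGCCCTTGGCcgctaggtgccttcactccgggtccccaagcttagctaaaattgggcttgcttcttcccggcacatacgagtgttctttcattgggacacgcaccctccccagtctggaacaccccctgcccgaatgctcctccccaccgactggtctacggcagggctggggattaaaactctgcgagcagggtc

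The other large group was of stromal type. Of 27 tested adipocyte genes, 4 were called higher and 1 lower, against 0.381% and 0.568% of all genes, with a median of 0.44. With the replicate block 7 were higher and 1 lower, against 0.588% and 0.824%. The sum of the 27 was 34800 to 39500 on the -GFs arrays and 39600 to 76800 on the BMP4 arrays, while the stromal markers overlapped as given above. ADIPOQ, the adipocyte hormone adiponectin, was 8.03, 9.92 and 7.18 without and 11.73, 13.18 and 10.58 with BMP4. The order of the replicate sets was the same in both groups, replicate 2 being highest, and the 3 sets differed by 3.70, 3.26 and 3.40. CFD, the protease adipsin, had the same order, at 8.90, 10.61 and 7.39 without and 11.59, 13.71 and 11.17 with BMP4. ADIPOQ rose by 3.45 (adjusted p 0.0192) and CFD by 3.19 (0.0542). ACSL1, an acyl-CoA synthetase, rose by 1.85 (adjusted p 0.066) and S3-12 (Plin4), a lipid droplet protein, by 1.77 (0.0956). S3-12 was detected on 1 -GFs array and on all BMP4 arrays. CIDEC (2.31), DGAT2 (2.03) and PPARG (1.21), a lipid droplet protein, a triglyceride enzyme and the master regulator of adipocytes, had adjusted p of 0.116, 0.115 and 0.192 and were called with the replicate block (0.00604, 0.00428 and 0.00571). CAR3, carbonic anhydrase of adipocytes, fell by 1.51 (adjusted p 0.0956), from 7.40, 7.30 and 7.24 to 5.58, 5.78 and 6.04.

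With these rose ALDH1A7, an aldehyde dehydrogenase, by 2.25 (adjusted p 0.0612), FGF10, a mesenchymal FGF ligand, by 1.61 (0.0184), BC034902 (at least 2.64-fold, 0.0718) and CAR5B, mitochondrial carbonic anhydrase, by 1.6 (0.0724). Chosen after their values were seen, IL1RN, the interleukin 1 receptor antagonist, rose by 1.59 and DLX1, a homeobox gene, by 1.54. FGF10 was 9.10, 8.93 and 7.77 without and 10.46, 10.64 and 9.53 with BMP4, all treated arrays above all controls. In PA6 mono-cultures ALDH1A7 (2.63), ACSL1 (2.05), BC034902 (2.08), CAR5B (1.6) and FGF10 (1.35) were called higher too, as was DGAT2 (2.39). Of the adipocyte genes, 7 were called higher and 1 lower there, against 0.775% and 0.485% of all genes. ADIPOQ (1.85, adjusted p 0.21), CFD (1.66, 0.356) and S3-12 (-0.41, 0.857) were not called there.

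ADIPOQ and FGF10 were called whichever array was left out. S3-12, CAR3, BC034902, CAR5B and DLX1 were not called with quantile or spline normalization, nor was ALDH1A7 with quantile. The other probe of IL1RN gave 0.37. The call of CFD was lost when -GFs replicate 3 (2.40) or BMP4 replicate 2 (2.41) was left out, whereas its sets differed by 2.69, 3.09 and 3.78. ACSL1 was called only without BMP4 replicate 3 among the fits that leave out an array, its change without the others being 1.80, 2.08 and 1.69 (-GFs replicates 1 to 3) and 1.99 and 1.23 (BMP4 replicates 1 and 2). S3-12 was lost without -GFs replicate 1 (1.56) or 3 (1.49) or BMP4 replicate 1 (1.87) or 2 (1.10), and CAR3 without each of the 6 arrays in turn (-1.4 to -1.63). ALDH1A7 was lost without each -GFs array in turn (2.07, 2.36 and 2.32) or BMP4 replicate 2 (1.59). BC034902 and CAR5B were lost without each -GFs array in turn (1.81, 1.82 and 1.64, and 1.64, 1.71 and 1.46) and without BMP4 replicate 1 (1.85 and 1.74) or 2 (1.19 and 1.04). IL1RN was lost without -GFs replicate 2 (1.67) or 3 (1.15) or BMP4 replicate 1 (1.34) or 2 (1.42), and DLX1 without -GFs replicate 3 (1.17) or BMP4 replicate 1 (1.21) or 2 (1.4). The adipocyte count of 4 was 1 without -GFs replicate 3 or BMP4 replicate 2, 2 without -GFs replicate 1 or BMP4 replicate 1, and 8 without BMP4 replicate 3.

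Acute phase and inflammatory genes fell. Of 25 tested members of that list 6 were called lower and 0 higher, against 0.568% and 0.381% of all genes. Still, the median of the list was 0.07 and the list did not shift as a whole. SAA3, serum amyloid A3, was 11.61, 12.01 and 10.22 in -GFs and 7.70, 8.96 and 6.70 with BMP4, and fell by 3.49 ± 0.6 (adjusted p 0.0106). SERPINA3H, a serine protease inhibitor of a tandem family, was 7.36, 7.95 and 8.37 in -GFs and 5.35, 5.55 and 5.51 with BMP4, detected on no BMP4 array. It was at least 3.82-fold lower (adjusted p 0.00169), and its relative SERPINA3G fell by 1.34 (0.0612). These family members are similar in sequence, and how far their probes read each other was not tested. The chemokines CCL11 (-2.11, adjusted p 0.0192), CCL2 (-1.77, 0.0954) and CCL7 (-1.10, 0.0735) fell. CCL11, which attracts eosinophils, was 11.08, 10.97 and 9.90 without and 8.40, 8.81 and 8.40 with BMP4, in groups that did not overlap.

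Other stromal and secreted genes fell with them. ENTPD2, an ectonucleotidase, was 8.85, 9.80 and 8.93 without and 6.07, 5.97 and 6.4 with BMP4, at a log2 fold change of -3.04 ± 0.267 (adjusted p 2.62e-05), the lowest adjusted p among the genes that fell. SRPX2, a secreted sushi-repeat protein, went from 10.55, 10.39 and 9.57 to 7.94, 7.33 and 7.25 (-2.67, adjusted p 0.0051). DPT, dermatopontin (at least 1.61-fold lower), and COL3A1, the type III collagen (-1.16), were the 2 called of 23 tested stromal markers. Of all genes, 0.568% were called lower. IFI205, an interferon-inducible gene (-2.03), HSD11B1, the enzyme that activates glucocorticoids (-1.45, chosen after its value was seen), ADM, adrenomedullin (-1.6), ANKRD1, a target of YAP and SRF (-1.08), and LOC100048436 (-2.03) fell as well. In the mono-cultures ENTPD2 (-2.10), SRPX2 (-1.6), DTX4 (-1.67), SERPINA3H (-2.18), CCL7 (-1.43), DPT (-2.91), COL3A1 (-1.58), IFI205 (-2.50) and LOC100048436 (-1.77) were also called lower.

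SAA3, CCL11, SERPINA3H, ENTPD2, SRPX2 and LOC100048436 were called whichever array was left out. DPT and ANKRD1 were not called with quantile or spline normalization, and the other probe of ANKRD1 gave -0.52. Without -GFs replicate 1 or 2, respectively, the calls of CCL2 (-1.33, -1.57), CCL7 (-0.97, -0.84), SERPINA3G (-1.17, -1.14), IFI205 (-1.62, -1.82), HSD11B1 (-1.29, -1.35), DPT (-1.54, -1.30), COL3A1 (-0.87, -1.14) and ANKRD1 (-1.03, -1.26) were lost, and without -GFs replicate 3 those of ADM (-1.39) and ANKRD1 (-0.93). BMP4 replicate 1 decided CCL2 (-1.97), CCL7 (-1.18), IFI205 (-1.96), DPT (-1.51), COL3A1 (-1.23), ADM (-1.34) and ANKRD1 (-0.81), BMP4 replicate 2 decided CCL2 (-1.88), CCL7 (-1.24), DPT (-1.61), COL3A1 (-1.13), ADM (-1.51) and ANKRD1 (-1.0), and BMP4 replicate 3 decided CCL2 (-1.45), CCL7 (-0.88), SERPINA3G (-1.01), IFI205 (-1.82), HSD11B1 (-1.08), DPT (-1.58) and COL3A1 (-1.13). The list's count of 6 was 3 when -GFs replicate 1, -GFs replicate 2 or else BMP4 replicate 3 was left out.

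The rises with the lowest adjusted p were those of NDP52 (Calcoco2), an autophagy receptor, and of RHOX6 and RHOX9, homeobox genes of the X-linked reproductive cluster that are active in placenta and germ cells. RHOX6 was 8.12, 8.0 and 8.23 without and 10.22, 10.31 and 9.75 with BMP4 and rose by 1.97 ± 0.157 (adjusted p 1.26e-05). RHOX9 was 10.01, 9.70 and 10.04 without and 11.90, 11.80 and 11.45 with BMP4 (1.80 ± 0.146, adjusted p 1.26e-05). The pair are close paralogs, and how far their probes read each other was not tested. NDP52 was 8.48, 7.94 and 8.67 in -GFs and 10.80, 10.75 and 10.33 with BMP4 (2.26 ± 0.238, adjusted p 0.000246), with 2.29 at its other probe. These 3 genes were called whichever array was left out and in every alternative.

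Pluripotency genes stayed expressed. None of the 13 tested core pluripotency genes was called by limma (0 higher, 0 lower, also with the replicate block), with a median of 0.18. POU5F1, the Oct4 gene, was 13.33, 13.00 and 13.26 without and 13.27, 13.20 and 13.37 with BMP4. NANOG (0.48, adjusted p 0.672) and SOX2 (0.30, 0.646) were not called either. Of 19 tested names of the naive pluripotency list, 1 was called higher, against 0.381% of all genes. All 19 lay above 0, with a median of 0.58 against -0.0043 for all genes. TBX3, a T-box factor of naive ES cells and a BMP target, was the called one, at 8.53, 7.77 and 8.15 without and 9.63, 8.89 and 9.33 with BMP4. Its sets differed by 1.09, 1.12 and 1.18, and it rose by 1.13 ± 0.212 (adjusted p 0.0172). Its other kept probe gave 0.43 (adjusted p 0.28). Its change was 0.94 without -GFs replicate 2, 0.96 without BMP4 replicate 1 and 0.91 and 0.87 with quantile and spline normalization, each under the fold threshold. The fits without an array leave its partner unpaired, whereas each set difference given above was over 1. NR5A2 (0.78) and SPIC (0.77), chosen after their values were seen, had adjusted p of 0.0627 and 0.0638 but did not reach the fold threshold. The primed epiblast list leaned the other way, with SOX3 its 1 call among 9 (lower, against 0.568% of all genes) and a median of -0.63. With the replicate block FGF8, a growth factor of the epiblast and streak (1.15, adjusted p 0.399), was called higher as well (0.0198).

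Few genes of mesoderm, endothelium and blood were called. Of 11 tested genes of primitive streak and mesoderm, 0 were called, with a median of 0.22. Of all genes, 0.381% were called higher and 0.568% lower. T (brachyury), the streak factor, stood at 1.43 (adjusted p 0.141), with set differences of 0.74, 1.64 and 1.91, and FOXC2, a mesodermal forkhead gene, at 1.12 (0.255). Both were called with the replicate block (0.00132 and 0.0123). They were 2 of the 11 genes, against 0.588% of all genes called higher with the block. Of 18 tested endothelial genes, 1 was called higher (5.56%, against 0.381% of all genes). PECAM1, an adhesion protein of endothelium that ES cells also carry, was 9.56, 8.11 and 9.29 without and 10.25, 9.88 and 10.33 with BMP4. It rose by 1.17 ± 0.309 (adjusted p 0.087), was 0.73 without -GFs replicate 2 and was not called without BMP4 replicate 1 (1.12), 2 (1.30) or 3 (1.08) or with spline normalization. Its other probe gave 0.78. KDR (0.22), TEK (0.36), ICAM2 (0.03) and VEGFA (0.14) were not called, and CDH5, TIE1, WNT3, WNT10A and FZD4 were below the detection filter. Of 6 tested blood genes 0 were called, and of 31 cell cycle genes 0, with a median of 0.05. The reference gene TBP was -0.11.

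Fewer direct BMP targets were called in the co-cultures than in the mono-cultures. The list has 12 tested names for 10 genes. In the co-cultures TBX3 was called and the other 11 names were not, with a median of 0.52, while 8 of the 12 were called higher in the mono-cultures (median 1.82; 0.775% of all genes were called higher there). ID1 was 8.37, 9.21 and 9.61 in -GFs and 9.90, 10.96 and 9.36 with BMP4 co-cultures, with BMP4 replicate 3 below its own control, a difference of 1.01 ± 0.437 (adjusted p 0.364). In the mono-cultures ID1 was 7.75 ± 0.398 without and 12.06 ± 0.086 with BMP4 (mean ± SD, n = 3), groups far apart (4.31, limma adjusted p 0.000102). The mean of the ID1 control was 1.31 higher in co-cultures than in mono-cultures. The co-culture control was the higher one for 5 of the 12 names, with differences from -2.45 (GATA2) to 2.56 (HEY1). ID3 stood at 0.62 in co-cultures and 3.07 in mono-cultures, ID2 at -0.82 and 1.85 (-0.62 and 2.23 under the name IDB2), and HEY1, a Notch and BMP target, at 0.10 and 3.16.

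The difference between the BMP4 effects of the culture types was tested directly by an interaction contrast, which called 76 genes (0.526%), 33 with a higher effect in co-cultures and 43 with a lower one. The co-culture effect minus the mono-culture effect was -3.29 for ID1, -3.06 for HEY1, -2.45 for ID3 and -2.67 for ID2 (-2.85 under IDB2), with adjusted p of 0.035, 0.0235, 0.00196 and 0.013 (0.0626). SMAD6, the inhibitory SMAD, rose by 1.47 in mono-cultures and stood at 0.69 in co-cultures, and this difference was not called (adjusted p 0.536), nor was that of ID4 (-1.22, 0.145; -1.49 and 0.153 under IDB4). With the replicate block the ID4 difference was called (0.0262; 0.0143 under IDB4) and that of SMAD6 was not (0.26). TBX3 went the other way (1.34, adjusted p 0.0736). Of the pathway's own components few were called, where 0.381% of all genes were called higher and 0.568% lower. Of 3 tested BMP ligands and 8 receptors and SMADs 0 were called. Of 12 antagonists and modulators RGMA, a BMP co-receptor and axon guidance protein, fell by 1.20 (adjusted p 0.0051). It was called whichever array was left out, and not with quantile or spline normalization. The part that the number of responding cells has in these differences was not tested.

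**Figure D4:**
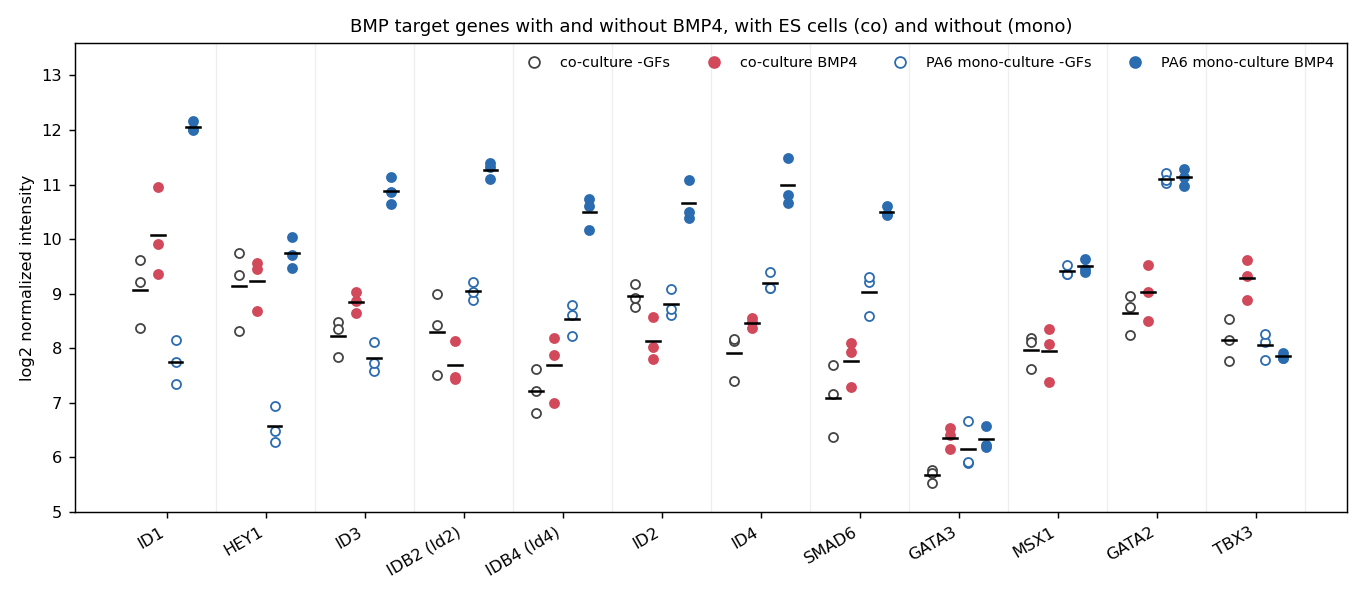
Log2 normalized intensity (y axis) of 12 BMP target names on each of 12 arrays, co-cultures in grey (-GFs, open) and red (BMP4, filled) and mono-cultures in blue (open and filled), with black bars for the means of 3. ID1, HEY1 and ID3 rise steeply in the mono-cultures, while their co-culture groups lie close together, and the TBX3 groups are apart in the co-cultures.

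Among the 137 genes that BMP4 changed in co-cultures, 21 were called in the mono-cultures, all with the same sign (8 higher and 13 lower). Another 32 of the 55 called higher and 42 of the 82 called lower were detected on none of the 6 mono-culture arrays, against 12.4% of all genes, among them KRT14, DSP, RHOX6, RHOX9, EDNRB, ZIC1 and CRABP1. In all, 19 of the 137 were among the 76 genes whose effect differed between the culture types. The NDP52 effect was higher in co-cultures by 2.47 (adjusted p 0.00395), that of RHOX6 by 2.04, while for SYP the difference was -1.57. The 137 genes also include 13 called lower that were detected on no BMP4 array and 2 called higher that were detected on no -GFs array.

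**Figure D5:**
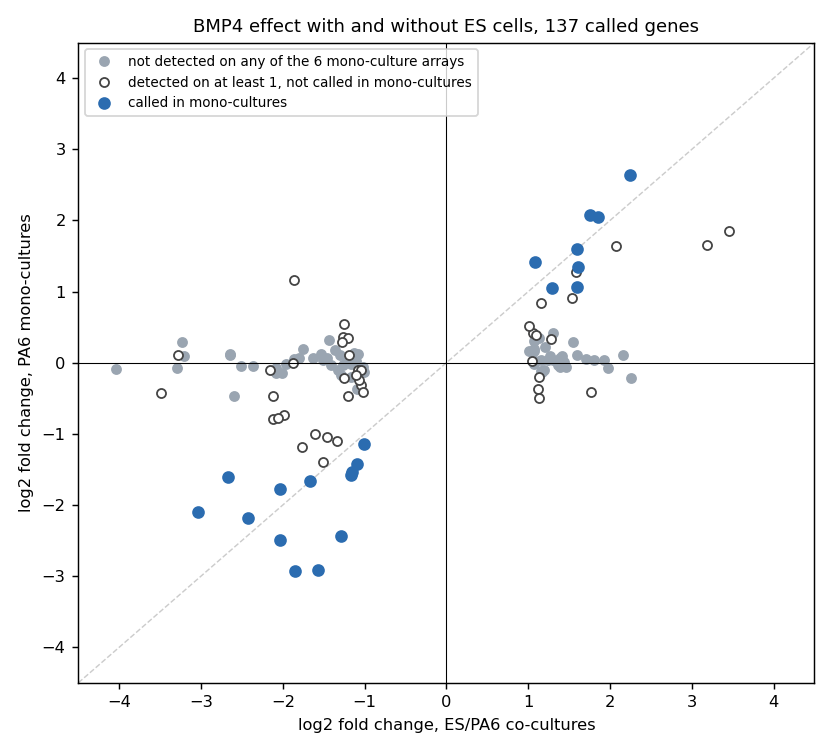
Log2 fold change with BMP4 in co-cultures (x axis) and PA6 mono-cultures (y axis) of the 137 called genes. Grey points were detected on no mono-culture array, white points were detected there but not called, and blue points were called in both. The 21 blue points lie in the quadrants of equal sign, and the grey points lie near 0 on the y axis.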

How the data were processed

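Illumina MouseWG-6 v2.0 arrays (1 colour, biotin-labelled cRNA) were analysed, of which 6 of 18 carry the comparison. The authors summarised the bead signals with GenomeStudio (version 2011.01, per the labels) and deposited non-normalized intensity values on a linear scale, 55.5 to 72879, with a deposited detection p-value for each probe. The array values involve no genome build (RefSeq promoters are on GRCm38.p6), and how the software set the detection p was not given in the sources used here. A further 5 stray lines were left out. The labels' BMP4 dose was used, since the methods name a lower one for slide cultures.

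All 18 arrays were normalized together by neqc of limma 3.58.1 (R 4.3.3), with an offset of 16 that understates changes of dim genes. The probe with the largest mean stood for its gene. The 14446 genes (11951 matched to a current symbol of the RefSeq mouse table) were tested by lmFit, contrasts.fit and eBayes on 6 group means, with Benjamini-Hochberg adjustment over all of them. A call needed an adjusted p under 0.1 and a log2 fold change over 1. Adjusted p-values without a named setting come from it. Where no array of a group detected a gene, its fold is a lower limit ("at least"): each dim array was given its probe value or, if larger, the smallest value it detected for any probe, and their mean was set against the brighter group's mean. With 3 arrays against 3, a permutation test cannot go below 0.1, so no such test was used, and precision is limited by how many arrays there are. The script was tested on simulated data.

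Summed levels of a marker list add normalized intensities on the linear scale, less the offset. Same-numbered co-cultures deviated together (r = 0.351 to 0.543 in all 9 pairs, 0.0652 to 0.171 in the mono-cultures), and each biological replicate held 1 well per condition per the labels, so the numbers pair the co-cultures; the study names no block, and blocking on the number, separately in each culture type, was tried as an alternative.

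The genes named were the 12 largest rises and falls among called genes whose groups do not overlap, list genes called with or without the block, genes the study measured by PCR, the BMP target, core pluripotency and mesoderm lists, and genes called in every alternative other than the stricter filter. The members and lists were chosen with earlier results of these data known. Alternatives tried were quantile, spline and median normalization, filters on detection, every probe, the block, trend and robust, array weights, other thresholds, leaving out each array, and fits of 9 or 6 co-culture arrays.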

Additional observations from a re-analysis of the deposited data

Results flagged for a closer look

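The BMP4 effect of 20 named genes differed between co-cultures and PA6 mono-cultures by the interaction contrast of the limma fit, each value being the co-culture effect minus the mono-culture effect on the log2 scale. The effect was higher in co-cultures for NDP52 (2.47), RHOX6 (2.04), RHOX9 (1.76), TRIM71 (1.54), DSP (1.39), TBX3 (1.34), MAPT (1.32), ELF3 (1.09), EVX1 (1.05) and GRHL3 (1.04). TRIM71, an ES cell RNA-binding protein, differed through its mono-culture change (-1.48, against 0.06 in co-cultures). EVX1, a homeobox gene of the primitive streak, was 0.66 in co-cultures and -0.39 in mono-cultures, neither called.

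The effect was lower in co-cultures for ID1 (-3.29), HEY1 (-3.06), EPHA7 (-3.02), IDB2 (-2.85) and ID2 (-2.67), which are names of 1 gene, ID3 (-2.45), MFSD2 (-2.31), C730009D12 (Onecut2, -1.79), SYP (-1.57) and MFNG (-1.53). The adjusted p of the 20 differences ran from 0.000781 to 0.0736, and from 0.000462 to 0.0323 with the replicate block. NDP52, RHOX6, RHOX9, DSP, GRHL3, ELF3, MAPT, MFNG and MFSD2 were detected on no mono-culture array. The part of ES and PA6 cell numbers in these differences was not tested.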

How the results depend on the processing

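The count of 137 genes called for BMP4 was 71 (22 higher, 49 lower) with quantile normalization and 64 (19 higher, 45 lower) with the cubic spline, both on uncorrected signals, 83 with detection on all 6 arrays (12419 genes tested), 79 at an adjusted p under 0.05 and 323 with no fold threshold. Fitted on the 9 co-culture arrays alone it was 12, and on the 6 arrays of the comparison alone 23. Leaving out 1 array, with its same-numbered partner kept and no block, gave 60 to 183 genes. The count was lowest without -GFs replicate 2 and highest without -GFs replicate 1. With the replicate block, which takes out the pairing of the sets, it was 204, and 177 and 171 on the 9 and the 6 arrays. The count of 76 genes whose effect differed between culture types was 277 with the replicate block, 38 at an adjusted p under 0.05, and 40 to 106 without 1 array, the lowest without -GFs replicate 2. The causes were not tested.

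The 82 called genes followed through the alternatives all kept their sign in every alternative, with 1335 of 1856 values still called and 521 not. Of these 82, 28 were called whichever array was left out, 47 lost the call without -GFs replicate 2, all 82 were called with the replicate block and 10 with the 9 co-culture arrays alone. The genes called in every alternative other than the stricter filter were DTX4, ENTPD2, LOC100048436, MFSD2, SERPINA3H, SRPX2, NDP52, RHOX6 and RHOX9. Another 62 named genes were not called: 67 of their values were called under an alternative, and 45 had another sign. Probes near background limit the folds of dim genes. Other kept probes of 25 called genes gave the same sign at 32 of 32 probes.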

Other observations

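Of 13 tested genes of the primitive endoderm, the extra-embryonic lineage that forms the yolk sac lining, limma called 0 (median -0.28). Of 10 tested primordial germ cell genes, 1 was called higher, TCFAP2C, against 0.381% of all genes, and the median was 0.38. Of 14 tested HOX genes, 1 was called lower (HOXB7), against 0.568% of all genes, and of 20 tested sterol synthesis genes 0 (median 0.02).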
